A study of Mus musculus with 11 samples.

Results

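The cytosolic ribosomal proteins are the protein parts of the ribosome that translates nuclear mRNA. The genes described here were the rows of the deposited count table whose name is that of a large-subunit (60S) protein, Rpl with a number or Rplp0 to Rplp2, or of a small-subunit (40S) protein, Rps with a number or Rpsa, with at least 10 reads in at least 5 of the 11 mice. Of 43346 rows, 81 carried such a name and 78 passed, 46 of them 60S and 32 of them 40S genes. Rpl10l, Rpl39l and Rpl3l did not pass, with 0 reads, 0 to 2 reads and 0 to 18 reads per mouse. The lowest genes that passed were Rps4l, with 225 to 578 reads per mouse, and Rpl29, with 598 to 1397. All 78 also passed the low-count filter of the test across all genes, which kept 19863 genes.

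RNA was sequenced from colonic tissue of male Swiss Webster mice, an outbred stock, at 8 to 10 weeks of age. One group was 5 germ-free mice, which had no microbiota. The other was 6 humanized mice, born germ-free and given 300 μL of stool suspension from 1 human donor by gavage at 4 to 5 weeks of age, so that donor and colonization cannot be told apart. Total counts ran from 49097005 to 64148538 in germ-free mice and from 39125290 to 54219854 in humanized mice. Genes of the colonic epithelium such as Epcam, Krt8 and Krt19 were abundant in both groups (mean 753, 1455 and 823 RPKM in germ-free mice and 777, 1751 and 850 RPKM among the humanized, where RPKM is CPM, explained below, per kilobase of the deposited coding length).

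In a cell, the 40S subunit reads the mRNA and the 60S subunit joins the amino acids, and each mature ribosome holds 1 copy of nearly every protein, so that the proteins are needed in fixed proportion. Their mRNAs begin with a C followed by a run of pyrimidines, the 5′ terminal oligopyrimidine (TOP) tract, through which growth signals control their translation. The mouse genome holds many processed pseudogenes of these genes, copies made from mature mRNA, and a read can match a gene and its pseudogene equally well.

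The summed ribosomal protein transcripts took overlapping shares of all counted reads in the groups, and stood higher in humanized mice only relative to the typical gene. In germ-free mice 1 to 5, the 78 genes took 2.013%, 2.013%, 1.904%, 2.024% and 2.038% of the counted reads (mean 1.998 ± 0.0538, SD, n = 5). In humanized mice 1 to 6 they took 2.072%, 1.906%, 2.016%, 2.168%, 1.981% and 2.001% (mean 2.024 ± 0.0888, SD, n = 6). The groups overlapped, and their means differed by 0.0256 percentage points, less than the spread within either group. The balance of the subunits was also alike, with a ratio of 60S to 40S reads of 1.399 ± 0.0188 in germ-free and 1.395 ± 0.0175 in humanized mice.

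The main comparison scaled libraries with TMM factors, which set the typical gene to no change. These factors lay between 1.03 and 1.116 in germ-free and between 0.876 and 1.03 in humanized mice. Levels are given throughout as CPM, counts per 1000000 counts of the library after this scaling. The summed level of the 78 genes was 18050 to 19040 CPM in the germ-free and 19620 to 23380 CPM in the humanized group, without overlap.

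**Figure D1:**
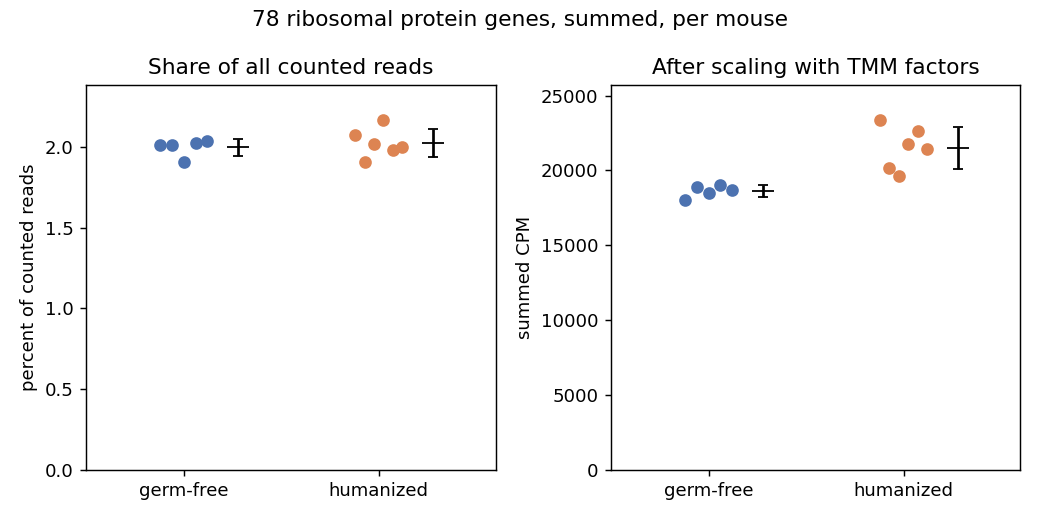
Summed reads on the 78 ribosomal protein genes in each mouse, as a percent of all counted reads (left) and as CPM after TMM scaling (right). Points are mice, and the bars beside them are the mean and SD of 5 germ-free and 6 humanized mice. The groups overlap on the left (1.904 to 2.038% and 1.906 to 2.168%) and are separate on the right (18050 to 19040 and 19620 to 23380).

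In the test across all genes, 25 of the 78 genes (32.1%) were higher in humanized mice at a false discovery rate (FDR) below 0.01, against 9.2% of all genes tested, and 0 were lower, against 10.1% of all genes. With total counts in place of TMM factors, 2 remained higher, Rpl41 and Rps14, against a background of 3.89%. That scaling moved the median log2 fold change of all genes from 0.01 to -0.18, and the median of the 78 genes from 0.21 to 0.02. The distance between the medians was 0.198 with TMM factors and 0.194 with total counts, but 0.121 with offsets for the deposited length and -0.00405 with offsets for GC content and length, described below. With TMM factors the number called was 13, 15, 14 and 14 without germ-free mouse 1, 2, 3 or 5, and 17 to 34 without any other mouse. The share of all genes called was not computed for these omissions, so a change particular to the 78 genes cannot be told from a change across all genes.

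Those called were 13 of 46 genes of the 60S subunit and 12 of 32 of the 40S subunit. The median log2 fold change was 0.21 for the 60S and 0.19 for the 40S genes with TMM factors. The log2 fold change was above 0 in 77 genes with TMM factors and in 45 with total counts, and it ranged from -0.03 for Rpl29 to 0.63 for Rpl41 with TMM factors. Every humanized mouse stood above every germ-free mouse in 26 of the 78 genes (33.3%), against 8.67% of all genes tested, and below in 0, against 9.73%.

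**Figure D2:**
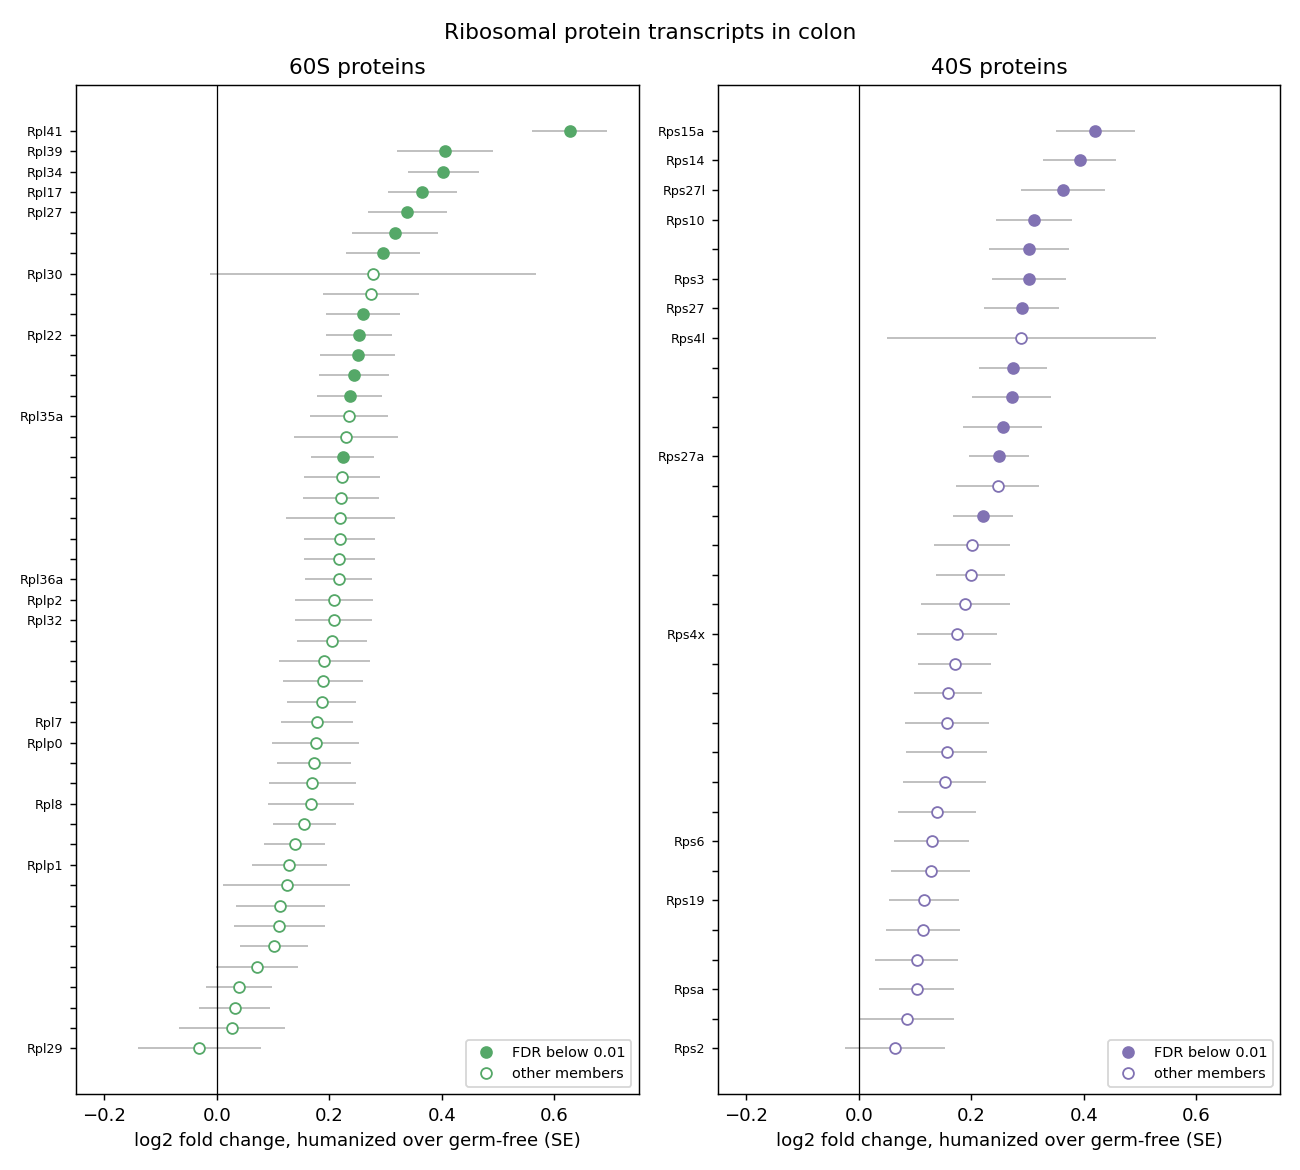
Log2 fold change of each ribosomal protein gene, humanized over germ-free mice, with TMM scaling, for 60S (left) and 40S (right) genes. Bars are the standard error, and filled points mark the 25 genes with an FDR below 0.01, which were 2 with total counts. Rpl41 lies apart at the top of the 60S genes at 0.63, and the wide bars belong to Rpl30 and Rps4l. Labels are given for the genes chosen by the naming rule.

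Among the 60S genes, Rpl41 had the largest difference. It encodes the smallest protein of the ribosome, a short basic peptide at the bridge between the subunits. Its whole coding sequence is printed here because of its unusual length, 78 bases with the stop codon, read from the GENCODE M21 transcript of the gene at chr10:128548114-128549305 on the minus strand (GRCm38):

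Rpl41: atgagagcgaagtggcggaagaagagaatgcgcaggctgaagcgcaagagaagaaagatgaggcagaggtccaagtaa

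Rpl41 stood at 259.0, 277.6, 251.6, 260.6 and 269.3 CPM in the germ-free mice and at 438.9, 397.9, 382.7, 359.9, 440.5 and 422.8 CPM in the humanized mice. Every humanized mouse lay above every germ-free mouse, by a wide margin. The log2 fold change was 0.63 (SE 0.0664, FDR = 1.34e-13), and 0.44 with total counts (FDR = 5.6e-09). Rpl41 passed the threshold under all 28 alternatives tried, which no other ribosomal protein gene did. As a share of the reads on the 78 genes, it rose from 1.42% ± 0.0474 to 1.90% ± 0.125 (SD).

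Rpl39, whose product lines the tunnel through which the new protein leaves the ribosome, lay between 134.7 and 162.7 CPM in germ-free and between 175.2 and 237.3 CPM in humanized mice. Its log2 fold change was 0.40 (SE 0.0854, FDR = 2.6e-04). Rpl17, another protein of the exit tunnel, lay between 187.6 and 206.9 CPM in germ-free and between 235.9 and 286.7 CPM in humanized mice (log2 fold change 0.37, SE 0.0614, FDR = 1.7e-05). The ranges were separate for both genes. Neither passed with total counts.

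Rpl34 was at 38.0, 39.36, 37.89, 42.28 and 42.07 CPM in germ-free mice and at 59.09, 51.26, 47.23, 53.37, 55.13 and 50.71 CPM in humanized mice, a log2 fold change of 0.40 (SE 0.0625, FDR = 5.5e-06). Rpl27, also a 60S protein, lay between 53.33 and 57.62 CPM in germ-free and between 63.5 and 85.34 CPM in humanized mice (log2 fold change 0.34, SE 0.0709, FDR = 5.5e-04). In both, the lowest humanized mouse was above the highest germ-free mouse.

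Among the 40S genes, Rps15a was at 211.4, 228.8, 203.4, 241.3 and 238.0 CPM in germ-free and at 304.8, 330.6, 265.4, 301.2, 287.5 and 314.4 CPM in humanized mice. It had the largest 40S difference, a log2 fold change of 0.42 (SE 0.0707, FDR = 6.5e-06). Rps14, a protein of the platform of the subunit, lay between 328.1 and 356.0 CPM in germ-free and between 414.7 and 502.6 CPM in humanized mice (log2 fold change 0.39, SE 0.0649, FDR = 5.6e-06). With total counts Rps14 kept a log2 fold change of 0.20 (FDR = 0.0064), whereas Rps15a missed the threshold there (0.23, FDR = 0.021).

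Rps3, which lies at the entry of the mRNA channel, was between 626.1 and 669.6 CPM in germ-free and between 723.9 and 860.9 CPM in humanized mice (log2 fold change 0.30, SE 0.0663, FDR = 5.3e-04). Rps10, which is ubiquitinated when ribosomes stall, lay between 160.8 and 169.1 CPM in germ-free mice. In humanized mice it lay between 176.0 and 224.5 CPM (log2 fold change 0.31, SE 0.0679, FDR = 9.0e-04). The ranges of both genes were separate, and both were called with TMM factors and not with total counts.

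**Figure D3:**
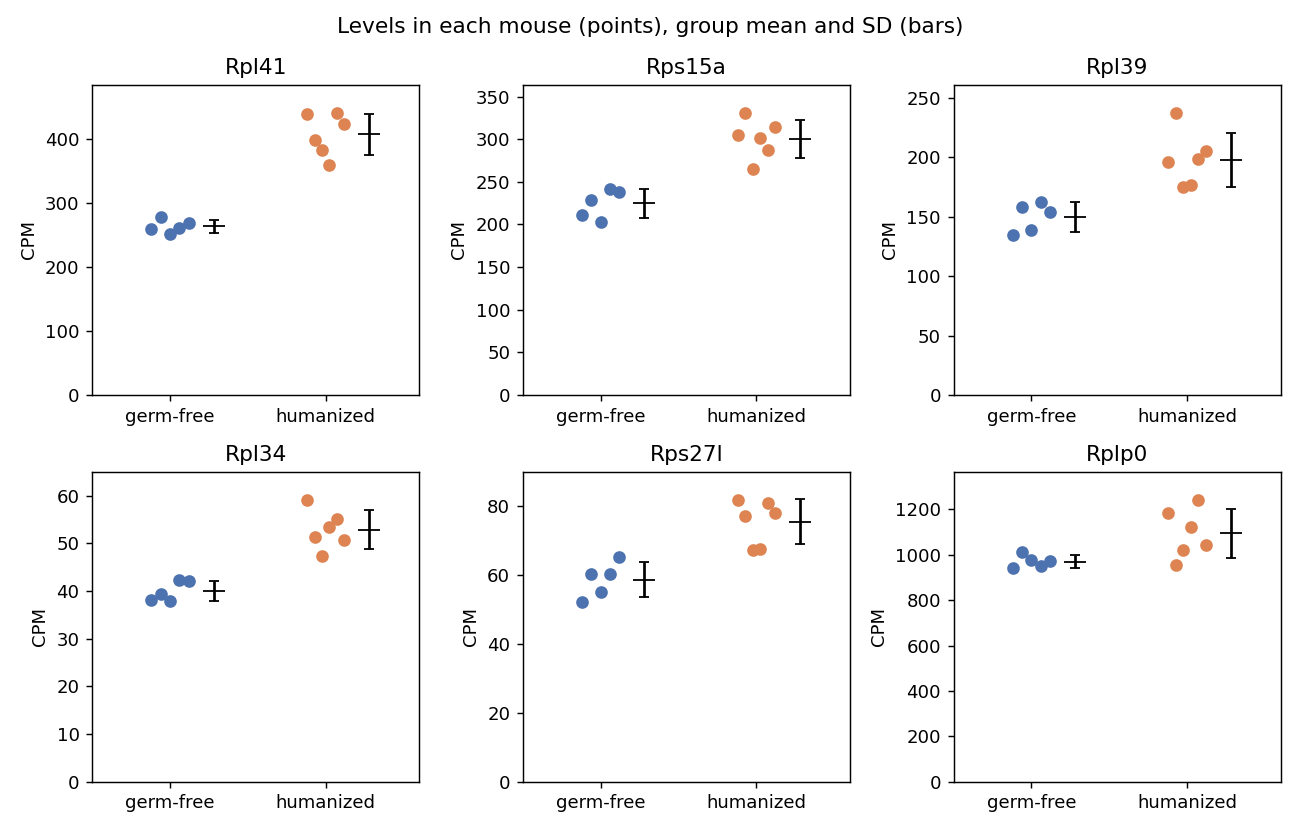
Levels of 6 ribosomal protein genes in each mouse, in CPM after TMM scaling. Points are mice, and the bars beside them are the mean and SD of 5 germ-free and 6 humanized mice. The ranges are separate for Rpl41, Rps15a, Rpl39, Rpl34 and Rps27l and overlap for Rplp0.

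The proteins of the stalk, which recruits the elongation factors, did not pass the test. Rplp0, the base of the stalk, was at 940.6, 1011, 975.3, 949.2 and 971.1 CPM in germ-free and at 1183, 956.5, 1019, 1123, 1242 and 1045 CPM in humanized mice (log2 fold change 0.18, SE 0.0772, FDR = 0.10). Rplp1 and Rplp2, the proteins that bind to it as dimers, had log2 fold changes of 0.13 (SE 0.0668, FDR = 0.21) and 0.21 (SE 0.0694, FDR = 0.039). Humanized mouse 2 lay within the germ-free range in Rplp0 and Rplp2, and humanized mice 2 and 3 did in Rplp1. With total counts the difference of Rplp0 and Rplp1 turned below 0.

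Genes with a further role in the cell gave mixed results. Rps27a, made as a fusion with ubiquitin, lay between 183.2 and 201.3 CPM in germ-free and between 219.7 and 251.3 CPM in humanized mice (log2 fold change 0.25, SE 0.0534, FDR = 0.0019). Fau, fused to a ubiquitin-like protein and not covered by the name rule, gave 0.24 (SE 0.0870, FDR = 0.048). Rps6, the protein phosphorylated by S6 kinase, gave 0.13 (SE 0.0667, FDR = 0.23), and Rpsa, also known as the laminin receptor, 0.10 (SE 0.0663, FDR = 0.35). Of these 4 genes, Rps27a passed with TMM factors, and the values of Rps6 and Rpsa were below 0 with total counts.

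Other core genes also lie outside the name rule. Gnb2l1, which encodes the scaffold protein Rack1 on the head of the 40S subunit, had a mean of 795 ± 26.6 CPM (SD) in germ-free and 946 ± 75.2 CPM in humanized mice (log2 fold change 0.25, SE 0.0697, FDR = 0.0064). Rps3a1 gave 0.12 (SE 0.0654, FDR = 0.24) and was below 0 with total counts.

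Levels differed far more between the genes than between the groups. On the RPKM scale, high means over all mice were those of Rplp1 (1147), Rpl32 (726), Rps27 (682) and Rpl8 (681). The lowest were those of Rps4l (7.68), Rpl35a (12.7), Rpl29 (24.8), Rps2 (26.5) and Rps19 (38.0). None of these 9 passed the test except Rps27. It lay between 151.1 and 163.9 CPM in germ-free and between 173.3 and 215.0 CPM in humanized mice (log2 fold change 0.29, SE 0.0673, FDR = 0.0021). Its log2 fold change was -0.157 with length offsets and -0.162 with GC and length offsets, both described below. The low end of the order depended on the length used. The deposited length of Rpl35a is 3526 bases and that of its GENCODE transcript 491 bases, and on the latter its level was 91.4 CPM per kilobase. For Rps19 the lengths were 4685 and 774 bases and the level on the transcript was 230.

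Some ribosomal proteins have a second gene, a paralog. Rps27l, a paralog of Rps27 that p53 can induce, lay between 52.14 and 65.2 CPM in germ-free and between 67.17 and 81.78 CPM in humanized mice (log2 fold change 0.36, SE 0.0746, FDR = 3.2e-04). The coding sequences of the pair differ at 61 of 255 bases. The first 120 coding bases are shown with the differing bases in capitals, from the GENCODE M21 transcripts of the genes at chr3:90212725-90213615 (minus strand) and chr9:66946086-66949516 (plus strand) of GRCm38:

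Rps27: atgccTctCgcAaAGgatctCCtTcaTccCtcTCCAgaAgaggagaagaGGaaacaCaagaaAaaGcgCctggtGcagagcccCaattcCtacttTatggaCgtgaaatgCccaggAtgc

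Rps27l: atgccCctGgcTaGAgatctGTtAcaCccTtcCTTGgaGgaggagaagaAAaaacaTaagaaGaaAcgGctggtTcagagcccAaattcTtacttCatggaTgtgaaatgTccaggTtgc

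The log2 ratio of Rps27l to Rps27 was -1.401 ± 0.118 (SD, n = 5) in germ-free and -1.32 ± 0.0898 (SD, n = 6) in humanized mice. The ranges overlapped, and an exact permutation test over mice, two-sided, gave p = 0.227 for the difference of 0.08. In all, 5 such pairs were tested, and each gave an adjusted p of 0.284 or more with overlapping ranges, where the smallest p the design allows is 0.00216. The differences in log2 ratio were 0.12 for Rpl22l1 to Rpl22 (exact permutation p = 0.214), 0.11 for Rpl36al to Rpl36a (exact permutation p = 0.123), -0.12 for Rpl7l1 to Rpl7 (exact permutation p = 0.19) and 0.12 for Rps4l to Rps4x (exact permutation p = 0.652).

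Taken singly, Rpl22l1 (log2 fold change 0.38, SE 0.0681, FDR = 6.6e-05) and Rpl36al (0.33, SE 0.0568, FDR = 9.3e-05) were higher in humanized mice, as was Rpl22 (0.25, SE 0.0588, FDR = 0.0033). Rpl36a gave 0.22 (SE 0.0590, FDR = 0.015), Rpl7 gave 0.18 (SE 0.0641, FDR = 0.053) and Rpl7l1 gave 0.05 (SE 0.0892, FDR = 0.76). With offsets for GC content and length, described below, Rpl22 was at -0.117 and Rpl36a at -0.149. Rps4l was the lowest of the 78 genes and uneven between mice. It was at 4.726, 7.814, 9.883, 5.477 and 4.392 CPM in germ-free and at 7.244, 6.058, 8.775, 11.92, 7.052 and 6.286 CPM in humanized mice (log2 fold change 0.29, SE 0.238, FDR = 0.45). Rps4x, its abundant X-linked counterpart, gave 0.18 (SE 0.0715, FDR = 0.087).

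Rpl30, a 60S protein, had the largest spread of the 78 genes in both groups. It stood at 223.4, 106.5, 108.6, 109.4 and 239.2 CPM in germ-free mice and at 284.5, 185.9, 243.7, 115.7, 123.7 and 191 CPM in humanized mice (log2 fold change 0.28, SE 0.290, FDR = 0.53). The mice fell into 3 levels that cut across the groups. Germ-free mice 2, 3 and 4 and humanized mice 4 and 5 lay between 106.5 and 123.7 CPM, humanized mice 2 and 6 at 185.9 and 191 CPM, and germ-free mice 1 and 5 and humanized mice 1 and 3 between 223.4 and 284.5 CPM.

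Among 16068 rows, the 3 whose pattern over the 11 mice was most like that of Rpl30, ranked by the size of Pearson's r on the log2 scale, all ran opposite to it. These genes were chosen after their values were seen. The first and the second, Sdc2 and Laptm4b, lie 1520 and 202 kb from Rpl30 on chromosome 15. Laptm4b was at 67.45, 114.2, 111.1, 117.7 and 76.03 CPM in germ-free and at 77.04, 87.99, 56.34, 115.7, 123.8 and 88.84 CPM in humanized mice. The third was Gm12191, a processed pseudogene of Rpl30 on chromosome 11.

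Gm12191 stood at 0.01586, 2.618, 2.018, 2.13 and 0.08583 CPM in germ-free mice and at 0.02723, 1.535, 0.08438, 2.75, 2.884 and 1.257 CPM in humanized mice. The 4 mice with the highest level of Rpl30 were the 4 with nearly none on Gm12191, and the mice at the middle level of Rpl30 were in the middle for Gm12191 also. Over the 348 bases of the Rpl30 coding sequence the reference sequences of Rpl30 (chr15:34440505-34443640) and Gm12191 (chr11:49678710-49679057, both GRCm38, minus strand) differ at 1 base.

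Rpl30 shared 32.3% of its 101-base windows with other genes. The differences between the levels of Rpl30 were far larger than the level of Gm12191, which held 764 reads in all mice, and the 9 rows named as Rpl30 pseudogenes held 99. The part of read placement in the level of Rpl30 was not tested, nor was that of genotype, which can differ between outbred mice and was not analysed here.

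**Figure D4:**
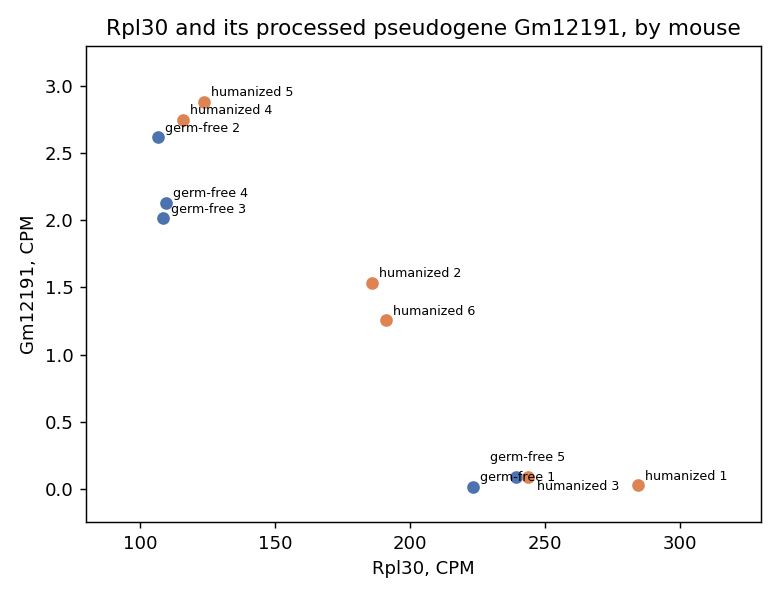
Rpl30 against its processed pseudogene Gm12191 in each mouse, both in CPM after TMM scaling. Blue points are germ-free and orange points humanized mice. The mice lie at 3 levels, with 5 at 106.5 to 123.7 for Rpl30 and above 2 for Gm12191, 2 between, and 4 at 223.4 or more for Rpl30 and below 0.1 for Gm12191.

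Read sharing with pseudogenes touched nearly all of the genes. In the GENCODE M21 transcripts, 72 of the 78 shared at least 1 stretch of 101 bases, the length of a read, with another gene, and 28 shared more than 50% of such stretches. The partners were 470 other genes, of which 426 were processed pseudogenes, and 367 of the 470 matched a row of the count table by identifier. These rows held 13.1 reads per 100 reads on the 78 genes, with rows of identical counts in every mouse taken once. The 6 genes that shared nothing had a median log2 fold change of 0.23 (3 called higher), the 44 that shared up to 50% had 0.21 (12 called) and the 28 above 50% had 0.20 (10 called), all with TMM factors.

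The 245 rows named as pseudogenes of the 78 genes held 4.96 ± 0.0684 reads (SD) per 100 reads on the genes in germ-free and 4.73 ± 0.127 in humanized mice. Of the 63 that passed the filter, 3 were higher (4.76%) and 0 lower, against 9.2% and 10.1% of all genes tested. The 5 with the most reads were Rpsa-ps10, Rps2-ps13, Rpl14-ps1, Rpl10a-ps1 and Rps10-ps2. Rps2-ps13 held 83305 reads in all mice and its parent Rps2 27177, so that the low level of Rps2 given above is uncertain. Rpsa-ps10 held 54.5 reads per 100 on Rpsa, Rpl10a-ps1 37 per 100 on Rpl10a, and Rpl14-ps1 23.1 per 100 on Rpl14. Rps10-ps2 held 27.9 reads per 100 on Rps10 and rose as its parent did (log2 fold change 0.30, SE 0.0595, FDR = 6.9e-04). With these named rows added to their parents, 26 genes were called, the 25 and 1 more, against 9.24% of all genes. Rows under other names that share stretches were not added. An example, chosen after its reads were seen, is Gm15772, which shares stretches with Rpl26 and held 78557 reads in all mice. The part of read sharing with such rows in the calls was not tested. Rps27 shared 98.4% of its stretches with Rps27rt, a gene on chromosome 9 whose row held 108344 reads in all mice against 96239 on Rps27, so that the level and the call of Rps27 are uncertain. Rps27rt, chosen after its values were seen, lay between 165.7 and 183.8 CPM in germ-free and between 190.3 and 239.1 CPM in humanized mice (log2 fold change 0.27, SE 0.0770, FDR = 0.012).

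The spread between mice was smaller for the ribosomal protein genes than for the typical gene, in a comparison that was not matched for level. The median SD of log2(CPM + 1) was 0.0563 in germ-free and 0.128 in humanized mice, against 0.114 and 0.172 over all genes tested. In CPM after TMM scaling, some mice were low or high in most of the genes at once. Germ-free mouse 1 was the lowest of its group in 50 of the 78 genes, and humanized mouse 1 the highest of its group in 49. Humanized mouse 2 was the lowest in 37 and humanized mouse 3 in 33. The read shares did not order the mice in the same way. Germ-free mouse 1 had the largest TMM factor of its group (1.116) and a share of 2.013%, while germ-free mouse 3 had the lowest share, 1.904%. Humanized mouse 1 had a factor of 0.887 and a share of 2.072%, below the 2.168% of humanized mouse 4. Humanized mouse 2 was the lowest of its group by share also (1.906%). The deviation of humanized mouse 2 from the other humanized mice fell with the GC content of the transcript across the 78 genes (Spearman -0.607, a description over genes of the same libraries), from -0.58 for Rpl36 to 0.32 for Rpl39, genes chosen after their values were seen.

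Libraries were also scaled to the summed ribosomal protein reads, which by construction centres the 78 genes near no change. Of them 1 passed the test there, Rpl41 (log2 fold change 0.42, FDR = 1.8e-07), against 3.57% of all genes. The share of every humanized mouse was above that of every germ-free mouse for Rpl41, Rpl17, Rpl34 and Rps14, and below it for Rpl14, Rpl6 and Rpl37. Rpl14 took 1.48% ± 0.0292 of these reads in germ-free and 1.31% ± 0.0556 in humanized mice (SD), although its own log2 fold change was 0.03 with TMM factors (FDR = 0.81) and -0.16 with total counts. Rpl6 and Rpl37 were named after their values were seen.

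Calls and medians of related lists are given with TMM factors, where 9.2% of all genes tested were higher and 10.1% lower. Other genes of translation were of a similar size of difference. Of 40 initiation factors, 9 were higher (22.5%) and 1 lower (2.5%), with a median log2 fold change of 0.20. Eif2s2, the beta subunit of the factor that carries the initiator tRNA, was at 171 ± 17.95 CPM (SD) in germ-free and 283 ± 51.1 CPM in humanized mice (log2 fold change 0.73, SE 0.118, FDR = 2.3e-07). Eif5, which triggers GTP hydrolysis by that factor, gave 0.42 (FDR = 5.7e-05), Eif2s3x, its gamma subunit, 0.30 (FDR = 2.1e-04), and Eif1b -0.39 (FDR = 0.0036).

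Of 10 elongation and release factors, 2 were higher (20%) and 1 lower (10%), with a median of 0.17. Eef1b2 and Eef1g, which recharge the elongation factor that brings the tRNAs, gave 0.35 (SE 0.0617, FDR = 2.4e-05) and 0.25 (SE 0.0522, FDR = 0.0011). Eef1a2, the muscle and neuron form of that factor, was at 2.16 ± 0.178 CPM (SD) in germ-free and 0.390 ± 0.291 CPM in humanized mice (log2 fold change -2.47, FDR = 5.6e-05). Of 19 other genes with TOP mRNAs, 7 were higher (36.8%) and 0 lower, with a median of 0.25, and Btf3 gave 0.35 (FDR = 5.7e-04). Of 8 hosts of small nucleolar RNAs with TOP mRNAs, 2 were higher (25%), Eif4a2 (0.33, FDR = 4.4e-04) and Rabggtb (0.24, FDR = 0.0033).

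The machinery that builds ribosomes stood near the typical gene. Of 66 assembly genes, 1 was higher (1.52%) and 0 lower, with a median of 0.02. The gene was Utp20, a component of the processome of the small subunit, at 70.7 ± 6.86 CPM (SD) in germ-free and 108 ± 14.5 CPM in humanized mice (log2 fold change 0.62, SE 0.0961, FDR = 2.4e-07). Of 15 genes of RNA polymerase I and its factors, 2 were higher (13.3%) and 0 lower, with a median of -0.04. These were Polr1d (0.37, FDR = 5.9e-05) and Polr1c (0.30, FDR = 0.0057), the subunits that polymerases I and III share. Of 12 regulators of ribosome production, 0 were higher and 1 was lower (8.33%). The lower gene was Myc, at 29.7 ± 2.83 CPM (SD) in germ-free and 22.3 ± 3.31 CPM in humanized mice (log2 fold change -0.41, SE 0.104, FDR = 0.0031).

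The proteins of the mitochondrial ribosome, which translates the few mRNAs made inside the mitochondrion, stood at a median like that of the cytosolic ones. Of 77 genes, 23 were higher (29.9%) and 0 lower, with a median of 0.25. The lowest FDRs were those of Mrpl12 (0.50, SE 0.0778, FDR = 8.8e-07), Mrps16 (0.39, SE 0.0656, FDR = 9.8e-05) and Mrpl53 (0.42, SE 0.0696, FDR = 1.0e-04).

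Transcript length and tissue makeup moved with these differences. Among other genes with a mean of at least 16 CPM, the median log2 fold change with TMM factors was 0.25 for 284 transcripts of up to 700 bases, 0.20 for 350 of 700 to 1000 bases and 0.14 for 1799 of 1000 to 2000 bases. It was 0.08 for 3507 of 2000 to 4000 bases and -0.01 for 2838 longer ones. Of the shortest class 36.6% were called higher. Offsets per library were fitted on the other genes and used in the quasi-likelihood test of edgeR, which without offsets called 18 of the 78 ribosomal protein genes higher, against 7.05% of all genes. With offsets for the deposited length 7 of the 78 were called, against 8.22% of all genes, and the median log2 fold change was 0.17 for the 78 and 0.05 for all genes. With offsets for the GC content and length of the GENCODE transcript, an alternative chosen after seeing the data, 3 were called, against 8.59% of all genes. The medians were then 0.04 for both, so that the 78 genes no longer stood above the typical gene.

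**Figure D5:**
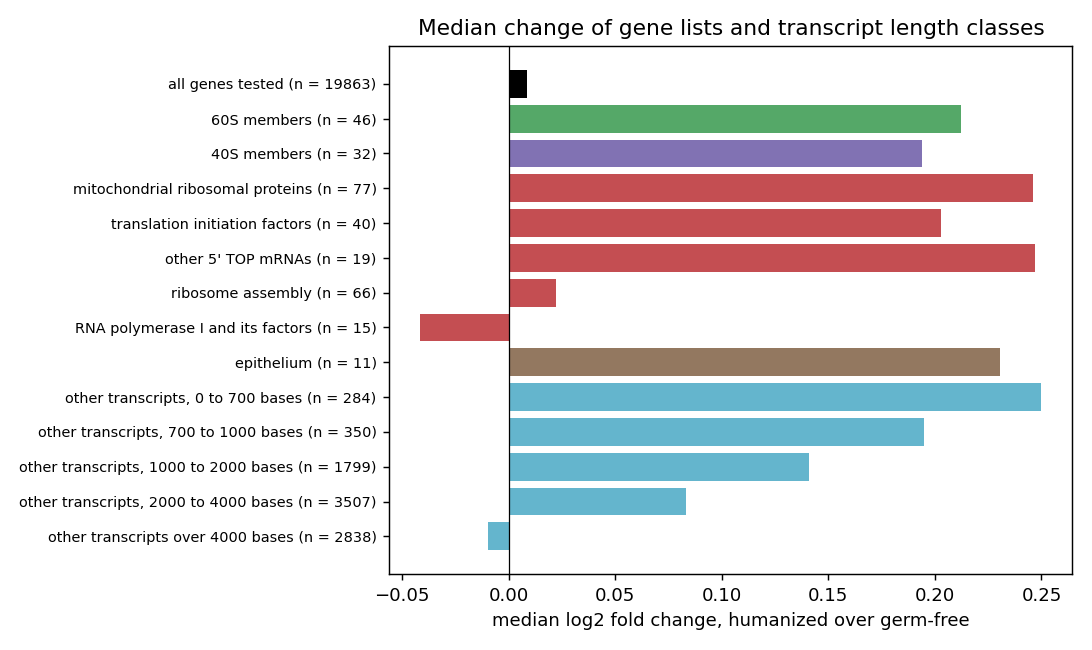
Median log2 fold change, humanized over germ-free mice with TMM scaling, of the ribosomal protein genes, related gene lists, epithelial markers, and other transcripts by length, with the number of genes in brackets. The 60S median (0.21) lies between those of the shortest classes (0.25 and 0.20), the 40S median (0.19) just below the second of them, and the ribosome assembly genes (0.02) near that of all genes (0.01).

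The 11 epithelial markers had a median log2 fold change of 0.23, with 2 higher, 0 lower and all 11 above 0, and their summed level was 9425 to 12580 CPM in germ-free and 10730 to 15040 CPM in humanized mice. Absorptive colonocyte markers summed to 4361 to 6552 CPM in germ-free and 9260 to 15870 CPM in humanized mice, without overlap, with 2 of 5 higher and a median of 0.53. That separation rested on Car1, at a mean of 3799 CPM in germ-free and 9607 CPM in humanized mice, since the other 4 markers summed to 1691 to 1977 CPM and 1434 to 2456 CPM. Goblet cell markers summed to 7112 to 10660 CPM and 10930 to 15390 CPM, also without overlap, with 2 of 6 higher and a median of 0.31. All 9 smooth muscle markers were lower (median -1.93), from a summed 567.1 to 1736 CPM in germ-free mice to 77.3 to 609.1 CPM in humanized mice. Fibroblast markers summed to 1029 to 1452 CPM and 102.1 to 799.3 CPM, with 4 of 6 lower, and neuron and glia markers to 27.07 to 37.46 CPM and 6.799 to 14.44 CPM, with 7 of 8 lower. The endothelial markers summed to 90.42 to 103.3 CPM and 12.82 to 85.81 CPM (median -0.91, 0 of 5 passed) and the macrophage markers to 88.37 to 115.3 CPM and 21.72 to 119.5 CPM (median -0.49, 0 of 5 passed). Of 7 plasma and B cell markers 4 were higher, and of 7 T cell markers 5. Of 11 crypt and cycling markers 0 were higher and 4 lower, with a median of 0.05. The 4 were the crypt base markers Ascl2 (-1.09), Lgr5 (-0.70), Smoc2 (-0.69) and Axin2 (-0.38). The cycling markers lay between -0.02 for Mcm2 and 0.28 for Cdk1, and none of them passed. Over all genes tested, 9.2% were higher and 10.1% lower. Every marker had a mean above 0 in both groups. With libraries scaled to the epithelial markers, the median was -0.04 for the 78 genes and -0.23 for all genes, a distance of 0.191, and 1 of the 78 was called, Rpl41, against 2.52% of all genes. The part of length and of tissue makeup in the differences was not tested beyond these values. In RNA of mixed tissue, fewer cells of a type and less RNA per cell cannot be told apart. The study's methods do not give the region or layers of the colon taken for RNA.

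The annotated start sites were searched for the TOP letters. RefSeq start sequences (GRCm38.p6) were found for 57 of the 78 genes, of which 12 (21.1%) held a C followed by 4 pyrimidines exactly at the annotated first base, against 2.49% of 27025 starts of all genes. These were 5 of the 22 matched genes that were called and 7 of the 35 others. The annotated first base can be several bases from the start in use, and other positions were not searched. Examples from both sets are shown, from 15 bases before the start to 15 after it, with the C and the 4 pyrimidines in capitals, for Rps15a (chr7:118116133-118116162, minus strand), Rps10 (chr17:27635230-27635259, minus strand) and Rps27 (chr3:90213634-90213663, minus strand), which were called, and Rplp2 (chr7:141447636-141447665, plus strand) and Rps6 (chr4:86857353-86857382, minus strand), which were not:

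Rps15a: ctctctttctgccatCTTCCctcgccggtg

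Rps10: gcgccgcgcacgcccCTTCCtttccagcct

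Rps27: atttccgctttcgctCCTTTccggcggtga

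Rplp2: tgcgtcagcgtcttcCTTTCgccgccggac

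Rps6: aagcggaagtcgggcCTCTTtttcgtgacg

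In the window from 250 bases before to 50 after the start, searched on both strands, CCGGAAGT, the core letters bound by ETS factors, was in 12 of the 57 (21.1%) and in 4% of all starts. CACGTG, an E-box that Myc can bind, was in 5 (8.8%) and in 7.24% of all, and TATAAA, the TATA box, in 5 (8.8%) and in 14.2% of all. The share with CCGGAAGT was 5 of 22 among the called genes and 7 of 35 among the others.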

How the data were processed

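Poly(A) RNA of 11 colons was sequenced as 101-base paired reads. The authors, per the labels' processing notes, used bcl2fastq 2.17.1.14, TopHat2 2.1.0, Bowtie2 2.2.3, the mm10 build and featureCounts of Subread 1.4.6-p5, and deposited raw read counts per gene. How reads that match several places were counted, and the strand setting, are not given in the sources used here. A replicate is 1 mouse.

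The comparison used edgeR 4.0.16 under R 4.3.3 (filterByExpr defaults, minimum count 10, TMM, exact test, Benjamini-Hochberg FDR below 0.01 over 19863 genes). The filter, scaling and test follow the study's methods, which used another edgeR version. Standard errors came from glmQLFit of edgeR. DESeq2 1.42.0, other scalings, filters, offsets, a replicate block, added pseudogene rows and omitted mice were alternatives. The code was tested on simulated data. Length, GC content and shared windows came from GENCODE M21.

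The genes and lists were chosen with earlier results of these data known. The genes named were the 10 with the lowest FDR in each direction, the 5 highest and lowest by RPKM, Rplp0, Rplp1, Rplp2, Rpsa, Rps27a, Rps6, the paralogs and their main copies, the gene of largest SD in each group, Fau, Rps3a1 and Rack1 (as Gnb2l1), up to 3 genes per direction of each related list, and the 5 pseudogene rows with the most reads. Some items that this rule names are not reported here. Within a group, pairs of mice differed by a mean chi-square per gene of 21.2 to 132, so no library was a repeat of another.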

Additional observations from a re-analysis of the deposited data

Results flagged for a closer look

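Of 124 groups of values checked for 1 mouse far from the rest of its group, 5 held such a mouse, and chance gives about 1 in 20. Germ-free mouse 3 had the lowest share of reads on the 78 genes, 1.904%, with the other germ-free mice between 2.013% and 2.038%. Humanized mouse 3 was low in Rps3a1, at 343.1 CPM against 395.1 to 425.1 CPM in the other humanized mice, and in Rps4x, at 602.6 CPM against 727.3 to 758.4 CPM. Humanized mouse 1 was high in Rps27a, at 251.3 CPM against 219.7 to 228 CPM. Germ-free mouse 2 was high in Gnb2l1, at 841.2 CPM against 777.7 to 791.3 CPM in the other germ-free mice.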

How the results depend on the processing

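The number of the 78 genes called higher was 25. The share of all genes called higher, 9.2% then, follows the counts where it was computed. It was not computed with 1 mouse left out or for the 10 mice without the replicate block. The number was 2 with total counts (3.89%), 1 with libraries scaled to the epithelial markers (2.52%), 1 scaled to the summed ribosomal protein reads (3.57%) and 39 at an FDR below 0.05 (14%). It ran from 13 to 34 when each mouse was left out in turn. It was 13, 15, 14 and 14 without germ-free mouse 1, 2, 3 or 5, the omissions that moved it by over 1.5 times. The quasi-likelihood test gave 18 (7.05%), and in that test 7 with length offsets (8.22%) and 3 with GC and length offsets (8.59%). DESeq2 gave 31 (11%), RLE factors 24 (9%), upper-quartile factors 19 (7.87%), no filter 17 (5.16%), and 24 (8.38%) without humanized mice 2 and 5, an omission chosen after seeing the data. In 0 of 28 alternatives was a gene called lower. The median log2 fold change of 0.21 was 0.018 with total counts, -0.043 scaled to the epithelial markers, 0.00010 scaled to the summed reads and 0.038 with GC and length offsets. The first 3 moved all genes alike, with the median of the 78 still 0.194, 0.191 and 0.193 above that of all genes, whereas the distance was -0.00405 with GC and length offsets, against 0.198. The labels number the mice of each group, but same-numbered mice are different animals and did not deviate together (correlations from -0.126 to 0.0901). With the replicate block, 2 of the 78 genes were called higher, against 2.54% of all genes. In the same 10 mice without the block 10 of the 78 were called higher. Calls over all genes, in either direction, were 1010 with the block and 2081 without it. The difference in read share ran from -0.0032 to 0.0492 percentage points with 1 mouse left out and was 0.0658 without humanized mice 2 and 5, and leaving out mitochondrial rows was not run because the table used here holds no such row. The paralog ratios kept their direction and missed the threshold under all alternatives. The cause of the changes was not tested. Depth limited few genes, since all but Rps4l had at least 598 reads in every mouse. Of the 78 genes, 77 had a log2 fold change above 0 in the main comparison, 45 with total counts, 40 scaled to the summed reads, 24 scaled to the epithelial markers, 64 with length offsets and 48 with GC and length offsets. For the 3 scalings among these, the fewer values above 0 follow from the shift of all genes. The values that follow are those that changed sign among the genes chosen by the naming rule, members or not, and leave out the other members that did. With total counts these were Rpl7 -0.0101, Rpl7l1 -0.134, Rpl8 -0.0223, Rplp0 -0.0135, Rplp1 -0.0614, Rps19 -0.0713, Rps2 -0.119, Rps3a1 -0.0654, Rps4x -0.0136, Rps6 -0.0564 and Rpsa -0.0835. Scaled to the summed reads they were Rpl7 -0.0247, Rpl7l1 -0.147, Rpl8 -0.0427, Rplp0 -0.0331, Rplp1 -0.079, Rps19 -0.091, Rps2 -0.143, Rps3a1 -0.0819, Rps4x -0.0297, Rps6 -0.0766 and Rpsa -0.104. Scaled to the epithelial markers they were Fau -0.0176, Rabggtb -0.00686, Rpl32 -0.0439, Rpl35a -0.0147, Rpl36a -0.0306, Rpl7 -0.0659, Rpl7l1 -0.177, Rpl8 -0.0853, Rplp0 -0.0738, Rplp1 -0.124, Rplp2 -0.0415, Rps19 -0.132, Rps2 -0.174, Rps3a1 -0.126, Rps4x -0.0762, Rps6 -0.116 and Rpsa -0.144. With length offsets they were Rpl32 -0.0804, Rplp1 -0.175 and Rps27 -0.157, and with GC and length offsets Fau -0.0030, Rpl22 -0.117, Rpl30 -0.0128, Rpl32 -0.112, Rpl35a -0.12, Rpl36a -0.149, Rplp1 -0.14 and Rps27 -0.162. With each mouse left out, Rpl29 ran from -0.105 to 0.0122, above 0 without germ-free mouse 3 or humanized mouse 2, and it was at 0.0263 without humanized mice 2 and 5, and Rpl7l1 ran from -0.00453 to 0.0929, below 0 without germ-free mouse 1. Among the values of single genes under an alternative, 190 missed a threshold they passed in the main test and 15 the reverse.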
